A study of Mus musculus with 12 samples.

Results

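The matrix metalloproteinases Mmp2, Mmp3, Mmp7, Mmp8, Mmp9, Mmp10, Mmp12, Mmp13 and Mmp14 and the inhibitor Timp1 were followed across 12 RNA-seq libraries of mice with acute colitis caused by dextran sulfate sodium (DSS). The 10 genes were chosen by name, by matching the Ensembl identifiers of the count table to mouse symbols, and they are 10 of 54109 identifiers and 10 of the 27 Mmp and Timp genes in the table. The libraries form 4 groups of 3: full colon from wild type (WT) mice, full colon from Gpr15l-/- mice (KO), LPMC from WT mice and LPMC from KO mice. LPMC usually stands for mononuclear cells of the lamina propria, the layer under the gut epithelium. All 4 groups received DSS, so no value describes an untreated gut. The labels do not give age, sex or strain, how cells were isolated, whether each library is 1 animal, or whether colon and LPMC libraries share mice. The p-values therefore reflect only how far these libraries spread, part of which may be technical.

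Matrix metalloproteinases are zinc-dependent proteases, made as inactive precursors, that cut collagens, laminins and other proteins around cells. Tissue inhibitors such as Timp1 bind the active enzymes and block them. In the inflamed gut, stromal cells, macrophages, neutrophils and epithelium at ulcers are all known sources, and several of the genes are induced through the transcription factor AP-1 by cytokines such as interleukin 1 and tumour necrosis factor.

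The libraries held 45.4 to 140.7 M counts (M for 1000000). The deleted gene, listed under the symbol 2610528A11Rik, had 15639 to 80362 counts in the WT libraries of either tissue, 14 to 20 in KO colon and 4 to 10 in KO LPMC. Its position on chromosome 14 is 17.3 Mb from Mmp14. LPMC libraries were not free of other cells: the 10 epithelial markers summed to 11100 to 15700 CPM (counts per 1000000 counts, TMM-scaled for library composition) in LPMC and to 19800 to 38000 CPM in colon. The 6 T cell markers summed to 35.3 to 149 CPM in LPMC and to 3.49 to 33.9 CPM in colon, and the 10 fibroblast markers to 951 to 6240 CPM and 335 to 1310 CPM. None of the markers of these lists was at 0 in every library of a group. In such bulk samples, fewer cells of a type and less RNA per cell cannot be told apart.

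Of the 10 genes, 6 lie in 1 cluster on chromosome 9 of GRCm38, all on the plus strand, from the start of Mmp13 at 7272514 to the end of Mmp7 at 7699585, with Mmp12, Mmp3, Mmp10 and Mmp8 between them. Mmp2 lies on chromosome 8, Mmp9 on chromosome 2, Mmp14 on chromosome 14 and Timp1 on the X chromosome. RefSeq promoter windows (GRCm38.p6) were found for 8 of the 10, and none was found for Mmp2 and Mmp9. The 100 bases before the start are printed for Mmp3, Mmp10 and Mmp13, whose levels moved together across libraries, for Mmp7, which did not move with them, and for Mmp8, a neighbour without either motif. Capitals mark an AP-1 motif (TGANTCA) or a TATA motif (TATAAA), searched on both strands. The motifs were chosen after the windows had been seen.
Mmp3, chr9:7445722-7445821, plus strand: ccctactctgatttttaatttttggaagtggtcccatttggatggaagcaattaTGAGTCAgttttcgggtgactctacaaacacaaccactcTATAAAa
Mmp10, chr9:7502242-7502341, plus strand: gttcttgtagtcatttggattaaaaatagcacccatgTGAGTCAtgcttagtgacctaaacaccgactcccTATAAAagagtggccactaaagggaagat
Mmp13, chr9:7272414-7272513, plus strand: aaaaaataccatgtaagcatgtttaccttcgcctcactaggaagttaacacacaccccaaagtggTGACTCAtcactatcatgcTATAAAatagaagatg
Mmp7, chr9:7691990-7692089, plus strand: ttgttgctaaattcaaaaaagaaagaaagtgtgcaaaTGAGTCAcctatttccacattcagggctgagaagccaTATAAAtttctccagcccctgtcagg
Mmp8, chr9:7558329-7558428, plus strand: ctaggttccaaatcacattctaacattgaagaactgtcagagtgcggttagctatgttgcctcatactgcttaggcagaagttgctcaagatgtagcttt

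Of the 8 genes with a window, Mmp3, Mmp10, Mmp13 and Mmp7 had both motifs in the 250 bases before a start, which 1.21% of 32851 RefSeq windows hold. Mmp2 and Mmp9 could not be searched. The AP-1 motif, with or without the other, was in 6.75% of all windows and the TATA motif in 12.4%. A window at a second start of Mmp12 held the AP-1 motif, and the windows of Mmp8, Mmp14 and Timp1 held neither. The motif pair was present in the 3 genes that varied together and in Mmp7, and its part in their levels was not tested. A match describes these letters and does not show binding.

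The stromelysins Mmp3 and Mmp10, which cut proteoglycans, laminin and other metalloproteinase precursors, and the collagenase Mmp13 varied more between replicates of colon than almost any other gene. Mmp3 was at 106, 25.3 and 1.36 CPM in the WT colon libraries 1 to 3 and at 56.1, 1.69 and 9.24 CPM in the KO colon libraries 1 to 3. Mmp13 was at 72.3, 26.7 and 1.42 CPM in WT colon and at 58.4, 0.746 and 9.98 CPM in KO colon. Mmp10 was at 40.1, 9.13 and 0.603 CPM in WT colon and at 27.0, 0.843 and 2.56 CPM in KO colon. For each of the 3 genes, library 1 was the highest of either genotype, WT library 3 and KO library 2 were the lowest, and the genotypes overlapped. The highest colon library exceeded the lowest 97.0-fold for Mmp13, 77.4-fold for Mmp3 and 66.5-fold for Mmp10. Their standard deviation within groups, 3.04, 2.87 and 2.80 on the log2 scale, lay at the 99.8th, 99.7th and 99.7th percentile of genes tested, whose median was 0.45.

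In LPMC the same 3 genes spanned a narrower range. Mmp3 was at 24.1, 23.6 and 7.88 CPM in WT and at 23.7, 3.73 and 31.1 CPM in KO. Mmp13 was at 8.55, 4.71 and 3.02 CPM in WT and at 14.7, 3.73 and 23.3 CPM in KO. Mmp10 was at 1.53, 1.62 and 0.191 CPM in WT and at 3.29, 0.421 and 5.65 CPM in KO. WT library 3 and KO library 2 were again the lowest for all 3 genes, and the genotypes overlapped. Of the 50-base stretches of the Mmp10 transcript 140 are shared with Mmp3, and of those of Mmp3 147 are shared with Mmp10 or Gm15244. Reads there could have been split between these genes.

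**Figure D1:**
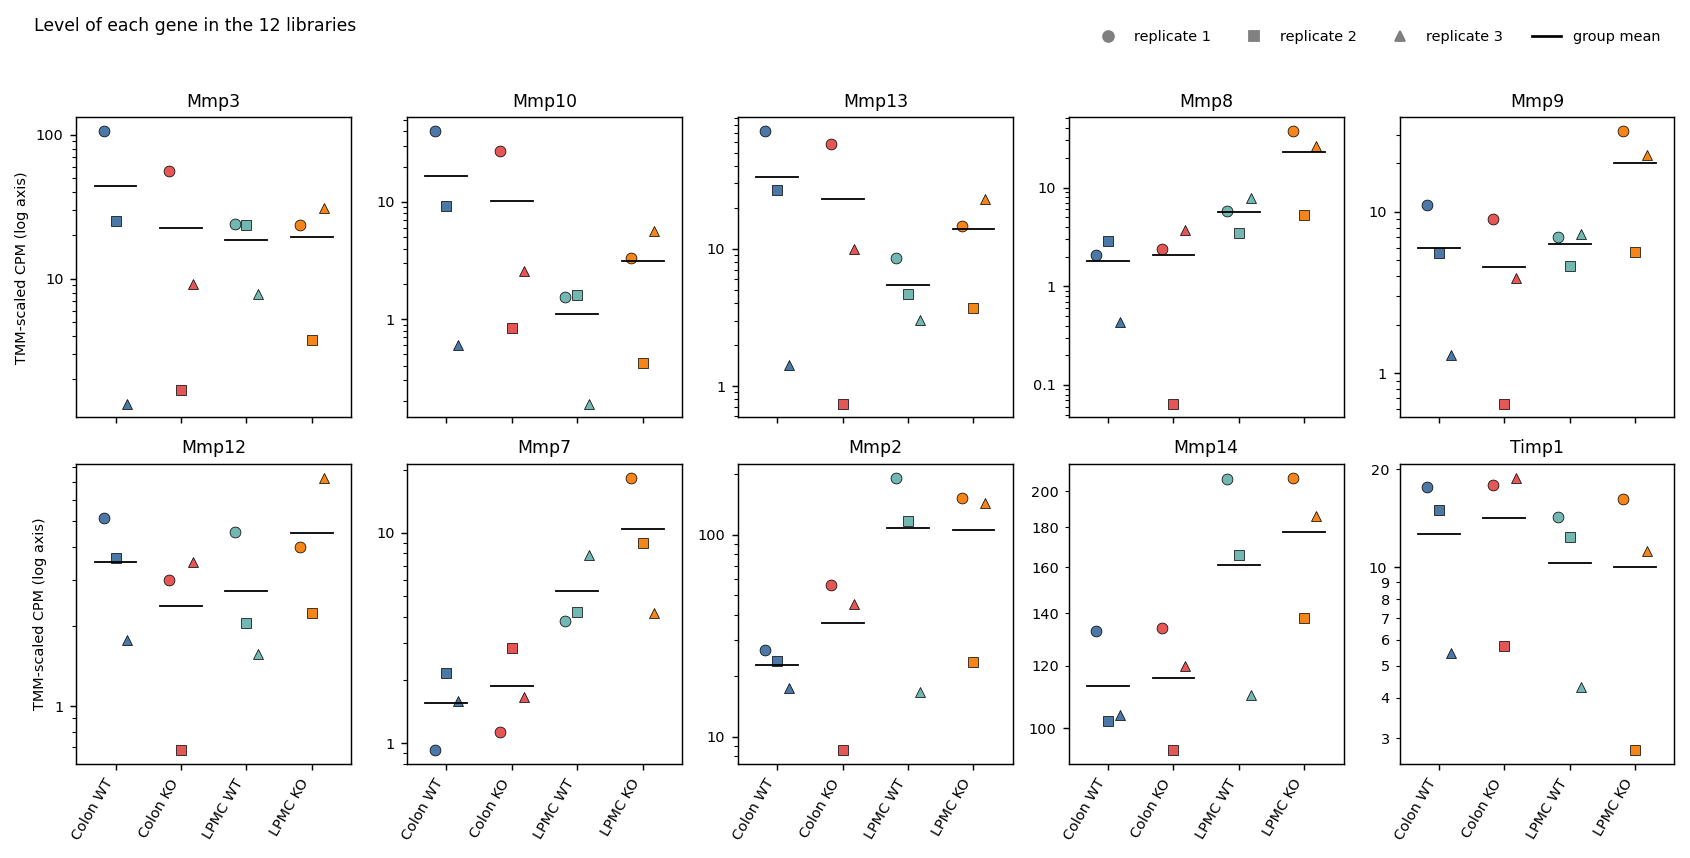
Level of each gene in the 12 libraries as TMM-scaled CPM on a log axis with its own scale per gene. Points are libraries (circle, square and triangle for replicates 1, 2 and 3) and lines are group means; in colon, Mmp3, Mmp10 and Mmp13 span 66.5-fold to 97.0-fold between libraries, while Mmp14 stays between 93.7 and 134 CPM.

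Mmp8, the neutrophil collagenase, and Mmp9, the gelatinase that neutrophils store in granules, were highest in KO LPMC libraries 1 and 3. Mmp8 was at 5.80, 3.45 and 7.81 CPM in WT LPMC and at 37.3, 5.21 and 26.1 CPM in KO LPMC. Mmp9 was at 7.02, 4.61 and 7.27 CPM in WT LPMC and at 31.7, 5.61 and 22.6 CPM in KO LPMC. For both genes KO library 2 lay within the WT range, so the genotypes overlapped. In colon, Mmp8 was at 2.09, 2.85 and 0.431 CPM in WT and at 2.38, 0.0649 and 3.73 CPM in KO, where the lowest value rests on 4 counts. Mmp9 was at 11.0, 5.57 and 1.29 CPM in WT colon and at 9.0, 0.649 and 3.92 CPM in KO colon, again with overlap and with KO library 2 lowest.

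Mmp12, the macrophage elastase, was the lowest or next to lowest of the 10 genes per kilobase in every group. It was at 5.13, 3.63 and 1.78 CPM in WT colon, at 2.99, 0.681 and 3.50 CPM in KO colon, at 4.55, 2.06 and 1.57 CPM in WT LPMC and at 3.99, 2.25 and 7.28 CPM in KO LPMC. All 4 groups overlapped.

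Mmp7, or matrilysin, which Paneth cells of the mouse small intestine use to activate defensins, followed another order of libraries. It was at 0.926, 2.16 and 1.58 CPM in WT colon, at 1.13, 2.84 and 1.66 CPM in KO colon, at 3.81, 4.19 and 7.90 CPM in WT LPMC and at 18.3, 8.92 and 4.17 CPM in KO LPMC. Every LPMC library exceeded every colon library, and within colon KO library 2, the lowest for Mmp13, Mmp8, Mmp9, Mmp12 and Mmp2, was the highest for Mmp7.

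Mmp14 is a membrane-bound enzyme that activates the precursor of the gelatinase Mmp2, and both are known products of fibroblasts. Mmp14 was at 133, 102 and 104 CPM in WT colon, at 134, 93.7 and 120 CPM in KO colon, at 207, 166 and 110 CPM in WT LPMC and at 208, 138 and 186 CPM in KO LPMC. Mmp2 was at 27.0, 23.8 and 17.5 CPM in WT colon, at 56.4, 8.58 and 45.2 CPM in KO colon, at 191, 117 and 16.7 CPM in WT LPMC and at 151, 23.4 and 143 CPM in KO LPMC. Mmp14 was the steadiest of the 10 in colon, with a spread at percentile 21.3 of genes tested. Mmp2 in LPMC was at percentile 98.2, and its WT library 3 and KO library 2 lay far under the other 4.

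Timp1, a secreted inhibitor of most metalloproteinases, was at 17.6, 15.0 and 5.47 CPM in WT colon and at 17.9, 5.77 and 18.8 CPM in KO colon. In LPMC it was at 14.3, 12.4 and 4.32 CPM in WT and at 16.2, 2.76 and 11.2 CPM in KO. The same libraries were lowest as for Mmp3 in each tissue, and all 4 groups overlapped.

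WT library 3 and KO library 2 were the lowest pair for 8 of the 10 genes in colon, with Mmp7 and Mmp14 the exceptions, and for 6 of 10 in LPMC, with Mmp7, Mmp8, Mmp9 and Mmp12 the exceptions. In colon the same pair was lowest in the mean of the neutrophil, macrophage, fibroblast, endothelial and squamous markers. In LPMC it was lowest in the mean of the macrophage, fibroblast, smooth muscle, T cell, B cell and squamous markers. It was not lowest there for neutrophil, epithelial, endothelial or mast cell markers. The share of all genes with this lowest pair is not given here, so the counts do not set the 10 genes apart. Neutrophil markers summed to 553 to 782 CPM in WT colon and 259 to 471 CPM in KO colon, most of it from Ly6g (424 to 584 and 245 to 343 CPM). The other 9 summed to 64.0 to 218 CPM in WT and 14.1 to 143 CPM in KO, with overlap. The part of these markers in the levels of the 10 genes was not tested.

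**Figure D2:**
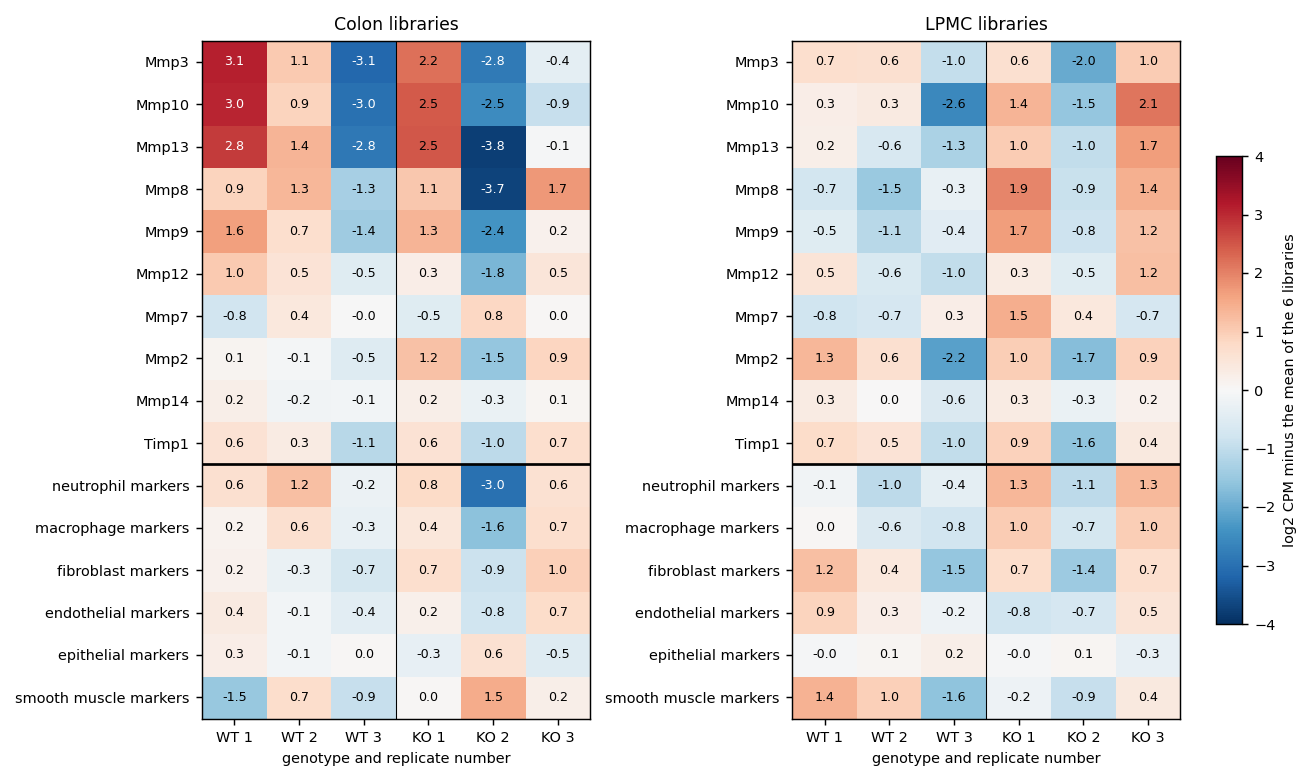
Log2 CPM of each gene and mean log2 CPM of 6 marker lists, as the difference from the mean of the 6 libraries of a tissue. Columns are libraries by genotype and replicate number; Mmp3, Mmp10 and Mmp13 are far under their mean in colon WT 3 and KO 2, and Mmp8 and Mmp9 are over it in LPMC KO 1 and KO 3.

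Levels of different genes were compared as CPM per kilobase of the principal transcript, and the order of the leading genes depends on that length, since Mmp14 has 2596 bases in it and 5960 in the union of its annotated exons. Per kilobase of the principal transcript, Mmp14 had the highest mean in all 4 groups, at 43.6 ± 6.77 in WT colon, 44.6 ± 7.84 in KO colon, 62.0 ± 18.7 in WT LPMC and 68.3 ± 13.8 in KO LPMC (SD, n = 3). Its range did not overlap that of the next gene in KO colon (Timp1, 16.0 ± 8.22) or in KO LPMC (Mmp2, 34.3 ± 23.2), while in WT colon it overlapped that of Mmp3 (24.5 ± 30.3) and in WT LPMC that of Mmp2 (35.2 ± 28.4). Per kilobase of the exon union, a length tried after the data had been seen, Mmp14 was first in KO colon (19.4 ± 3.43, n = 3). There Mmp3 led in WT colon (24.6 ± 30.4, against 19.0 ± 2.91 for Mmp14) and Mmp2 in WT LPMC (32.1 ± 26.0 against 27.0 ± 8.17) and KO LPMC (31.4 ± 21.2 against 29.8 ± 6.01). On the principal transcript, Mmp12, Mmp8 and Mmp10 held the last places, with Mmp8 lowest in WT colon at 0.739 ± 0.511 and Mmp10 lowest in WT LPMC at 0.645 ± 0.463. Most neighbours in the order overlapped. The exceptions below the first place were Mmp2 over Mmp9 in WT colon, and Mmp7 over Mmp8 and Mmp9 over Mmp12 in WT LPMC.

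As a share of the summed level per kilobase of the 9 proteases, Mmp14 was first in 11 of 12 libraries by the principal transcript and in 6 of 12 by the exon union. By the exon union Mmp3 was first in WT and KO colon library 1 and Mmp2 in WT LPMC 1 and 2 and KO LPMC 1 and 3. By the principal transcript, Mmp3, Mmp10 and Mmp13 together made up 62.0, 35.6 and 3.29% in WT colon and 47.6, 3.90 and 13.5% in KO colon. In LPMC they made up 4.80 to 17.1%. Mmp2 with Mmp14 made up 66.8 to 84.1% in LPMC and 34.2 to 91.6% in colon, with overlap. The summed level per kilobase of the 9 proteases was 3.61 to 8.83 times that of Timp1 in colon and 8.92 to 24.8 times in LPMC. By the exon union it was 2.29 to 7.32 times in colon and 6.11 to 14.9 times in LPMC, and the tissues overlapped. These are transcript ratios and say nothing of protein or activity.

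**Figure D3:**
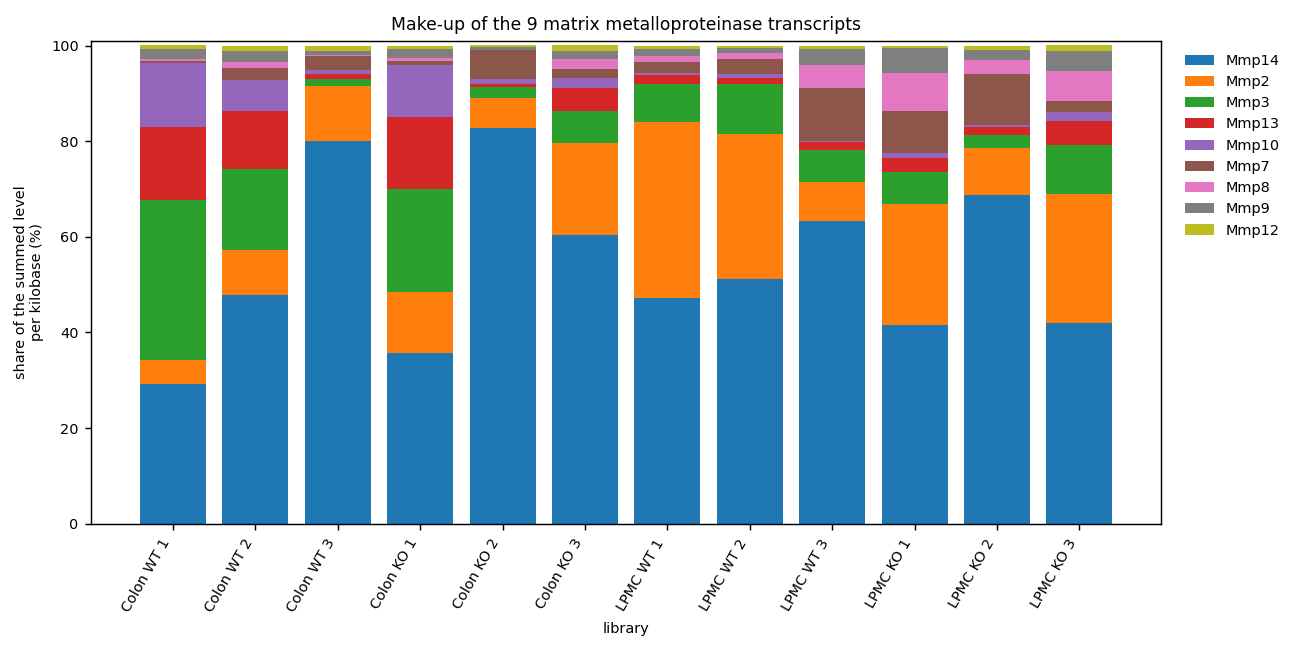
Share of each of the 9 metalloproteinases in their summed level per kilobase of the principal transcript, for each library. Mmp3, Mmp10 and Mmp13 together reach 62.0% in WT colon library 1 and 3.29% in WT colon library 3, and Mmp14 is the largest share in 11 of 12 libraries (6 of 12 per kilobase of the exon union).

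KO was compared with WT in each tissue to ask whether loss of Gpr15l changes the genes during colitis. All 10 genes passed the filter on low counts. In colon none passed the test and DESeq2 also called 0, where 0.00518% of 19303 genes were called. An unadjusted p under 0.05 was found for 0 of 10, and for 1504 of all genes tested. The groups overlapped for all 10 genes, whereas 14.3% of all genes did not overlap. Log2 fold changes ran from -1.04 for Mmp3 (SE 1.49, 95% interval -4.55 to 2.47, edgeR adjusted p = 0.85) to 0.64 for Mmp2 (SE 0.59, -0.75 to 2.03, edgeR adjusted p = 0.766), with a median of -0.23 beside 0.01 over all genes. Mmp14 had the narrowest interval, -0.46 to 0.46, so a change of it in colon beyond that size lay outside the 95% interval, while the intervals of Mmp3, Mmp10 and Mmp13 left changes of several log2 units within them.

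In LPMC none of the 10 passed either, DESeq2 called 0 of them, and 0.0103% of 19426 genes were called. All 10 overlapped between genotypes, and 7.44% of all genes did not. Of all genes tested, 513 had an unadjusted p under 0.05, and so did 2 of the 10. The 2 with an unadjusted p under 0.05 were Mmp8, with a log2 fold change of 1.99 (SE 0.71, 95% interval 0.25 to 3.73, edgeR adjusted p = 0.998), and Mmp9, with 1.65 (SE 0.60, 0.18 to 3.11, edgeR adjusted p = 0.998). Both had a higher mean in KO, through libraries 1 and 3. Without each library in turn the value was 1.48 to 2.46 for Mmp8 and 1.19 to 2.09 for Mmp9, with edgeR adjusted p of 0.338 or higher and 0.253 or higher. The median of the 10 was 0.84 beside 0 over all genes. Beside this, the neutrophil markers had a median log2 fold change of 1.60 and the macrophage markers of 1.03, with 0 of 10 called in each list, and neutrophil markers summed to 116 to 214 CPM in WT and 106 to 667 CPM in KO. Their part in the values of Mmp8 and Mmp9 was not tested.

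The KO to WT difference was not shown to differ between tissues for any of the 10 genes. The interaction called 0 of 20989 genes in edgeR (0%), with 985 at an unadjusted p under 0.05, and DESeq2 called 3. Of the 10, none had an unadjusted p under 0.05. The largest estimate was that of Mmp10 at 2.21 (SE 2.10, 95% interval -2.43 to 6.86, edgeR adjusted p = 0.915), and that of Mmp9 was 2.08 (SE 1.29, -0.79 to 4.94, edgeR adjusted p = 0.902).

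**Figure D4:**
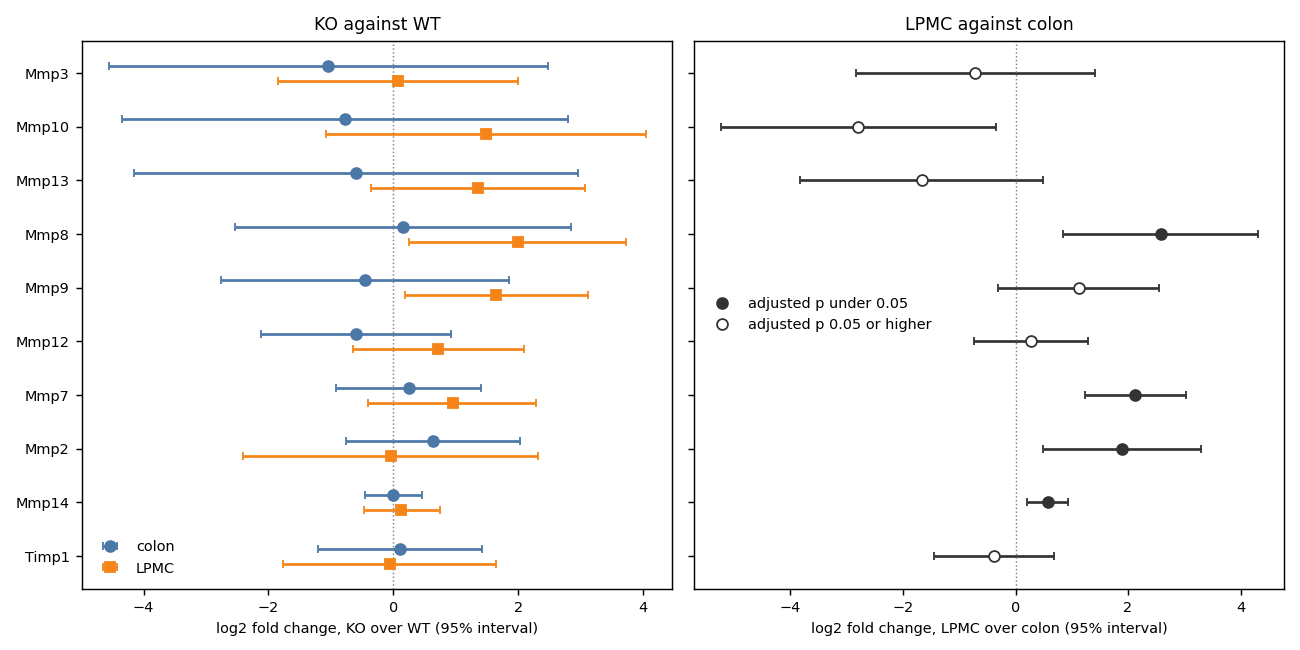
Log2 fold change of each gene with its 95% interval from edgeR, for KO over WT in colon and LPMC (left) and for LPMC over colon (right). No interval on the left belongs to a gene past the adjusted threshold; on the right filled points mark Mmp2, Mmp7, Mmp8 and Mmp14, with an adjusted p under 0.05.

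LPMC was compared with colon to ask in which material each gene is higher. Mmp7, Mmp8, Mmp2 and Mmp14 were higher in LPMC and 0 of 10 were lower, where 25.4% of 20989 genes were called higher and 24.9% lower. Mmp7 had a log2 fold change of 2.13 (SE 0.41, edgeR adjusted p = 0.00139) and was the 1 gene of the 10 whose tissues did not overlap, as 27.9% of all genes did not. Mmp14 had 0.57 (SE 0.16, edgeR adjusted p = 0.014), a 1.48-fold higher level. Mmp8 had 2.58 (SE 0.78, edgeR adjusted p = 0.0185) and Mmp2 had 1.89 (SE 0.64, edgeR adjusted p = 0.0299).

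The call of Mmp2 was lost without any 1 of 8 libraries (colon WT 2 and 3, colon KO 2 and 3, LPMC WT 1 and 2, LPMC KO 1 and 3), with an adjusted p of up to 0.0769 in edgeR. Without a filter on low counts Mmp2 and Mmp8 both lost it (edgeR adjusted p = 0.0871 and 0.0527). Mmp10 was at -2.79 (SE 1.11, edgeR adjusted p = 0.0567) and was called lower in LPMC by DESeq2 (adjusted p = 0.0146) and without colon WT 3 or colon KO 2 (edgeR adjusted p = 0.0319 and 0.0443). Mmp13 at -1.67, Mmp3 at -0.72, Timp1 at -0.39, Mmp12 at 0.28 and Mmp9 at 1.12 did not pass.

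Marker lists moved between the tissues as well. Of fibroblast markers 9 of 10 were higher in LPMC, with a median log2 fold change of 2.62, above the 1.89 of Mmp2 and the 0.57 of Mmp14. Of neutrophil markers 3 were higher and 1 lower, with 8 of 10 values positive and a median of 1.42. Without Ly6g, which was at 1.43 to 6.67 CPM in LPMC and 245 to 584 CPM in colon, they summed to 105 to 663 CPM in LPMC and 14.1 to 218 CPM in colon. Of epithelial markers 0 were higher and 7 lower. The part of these in the 4 calls was not tested.

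To describe which cells the levels followed, each gene was correlated with the mean log2 CPM of 1 marker list over the 6 libraries of a tissue, giving 20 pairs tested by exact permutation with Benjamini-Hochberg adjustment. Mmp2 followed fibroblast markers in LPMC (r = 0.99, rho = 1.0, exact permutation p = 0.00278, adjusted p = 0.0278) and in colon (r = 0.93, rho = 0.94, exact permutation p = 0.00833, adjusted p = 0.0333). Without the 2 libraries farthest from the median marker level, r was 0.99 in LPMC and 0.96 in colon. Timp1 followed them in colon (r = 0.88, rho = 0.94, exact permutation p = 0.00556, adjusted p = 0.0278) and Mmp14 in LPMC (r = 0.94, rho = 0.94, exact permutation p = 0.00556, adjusted p = 0.0278), with r of 0.84 and 0.78 without the 2 farthest. In the other tissue neither passed. Timp1 in LPMC had r of 0.95 (exact permutation adjusted p = 0.096), and 0.41 without the 2 farthest. Mmp14 in colon had r of 0.81 (exact permutation adjusted p = 0.115), and 0.87 without them. Other lists, which were not tested, came near the fibroblast list. In colon r with endothelial markers was 0.88 for Timp1 (rho = 0.89, and r of 0.88 without the 2 farthest) and 0.87 for Mmp2. In LPMC Mmp2 had r of 0.88 with smooth muscle markers and 0.86 with B cell markers. Mmp14 had 0.84 with B cell markers there (rho = 0.89). The smallest p that 6 libraries allow is 0.00278. By Spearman's rho 0 of 20 pairs passed adjustment, and by Pearson's r 5 did, of 10 with an unadjusted p under 0.05.

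Mmp8 and Mmp9 followed neutrophil markers in LPMC with r of 0.96 and 0.97 and rho of 0.89 for both, which missed the threshold (exact permutation adjusted p = 0.0764 and 0.0556). Without LPMC KO 1 and KO 3, r was 0.68 and 0.88. Other lists, which were not tested, came near in LPMC. Macrophage markers had r of 0.89 and 0.93 there (rho = 0.6 for both), and -0.05 and 0.29 without KO 1 and KO 3. T cell markers had r of 0.79 and 0.84, and mast cell markers of 0.83 and 0.80. In colon, r of Mmp8 and Mmp9 with neutrophil markers was 0.95 and 0.85, but 0.03 and -0.17 without KO 2 and WT 3, so these values rest on those libraries. With macrophage markers in colon, Mmp8 had r of 0.98 and rho of 1.0, and r of 0.89 without the same libraries, while Mmp9 had r of 0.81, and -0.92 without them. Mmp12 with macrophage markers had r of 0.91 in colon, which fell to -0.68 without the same libraries. In LPMC it had r of 0.88, and 0.97 without LPMC KO 1 and KO 3. Neither pair passed adjustment. With neutrophil markers in colon, which were not tested for it, Mmp12 had r of 0.94, and -0.2 without KO 2 and WT 3.

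Mmp3 and Mmp13 had r of 0.63 and 0.69 with fibroblast markers in colon, and 0.83 and 0.85 without colon KO 2 and KO 3. In LPMC r was 0.92 and 0.75, and -0.12 and 0.13 without LPMC KO 2 and WT 3. None of these 4 pairs passed adjustment. In colon both had a higher r with neutrophil markers, 0.70 and 0.81, which was -0.08 and -0.01 without KO 2 and WT 3. With endothelial markers there, r was 0.65 and 0.71, and 0.95 and 0.93 without KO 2 and KO 3. In LPMC Mmp13 had r of 0.97 and rho of 0.94 with macrophage markers, and r of 0.98 without KO 1 and KO 3. Values for lists other than the 1 assigned are descriptions with no test. Mmp7 and Mmp10, set against epithelial markers, did not rise with them: r of Mmp7 was 0.32 in colon and 0.27 in LPMC, and r of Mmp10 was -0.25 in colon and -0.89 in LPMC (rho = -0.94, exact permutation p = 0.00556, adjusted p = 0.0278), where it was -0.75 without the 2 farthest libraries. In LPMC every gene of the 10 but Mmp7 had a negative r with epithelial markers, with Mmp12 at -0.96 and Mmp13 at -0.94. Among lists not tested, Mmp10 in LPMC had r of 0.88 with B cell, 0.87 with macrophage and 0.86 with fibroblast markers. Without the 2 farthest libraries of each list these were 0.92, 0.69 and -0.26. In colon Mmp10 had r of 0.57 with fibroblast and endothelial markers alike, and 0.87 and 0.96 without KO 2 and KO 3. Its highest r there was 0.64 with neutrophil markers, and -0.04 without KO 2 and WT 3. Mmp7 had r of 0.85 with smooth muscle markers in colon (rho = 0.94), and 0.41 without KO 2 and WT 1. Its r was -0.89 with B cell markers in colon and -0.93 with endothelial markers in LPMC (rho = -1.0).

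**Figure D5:**
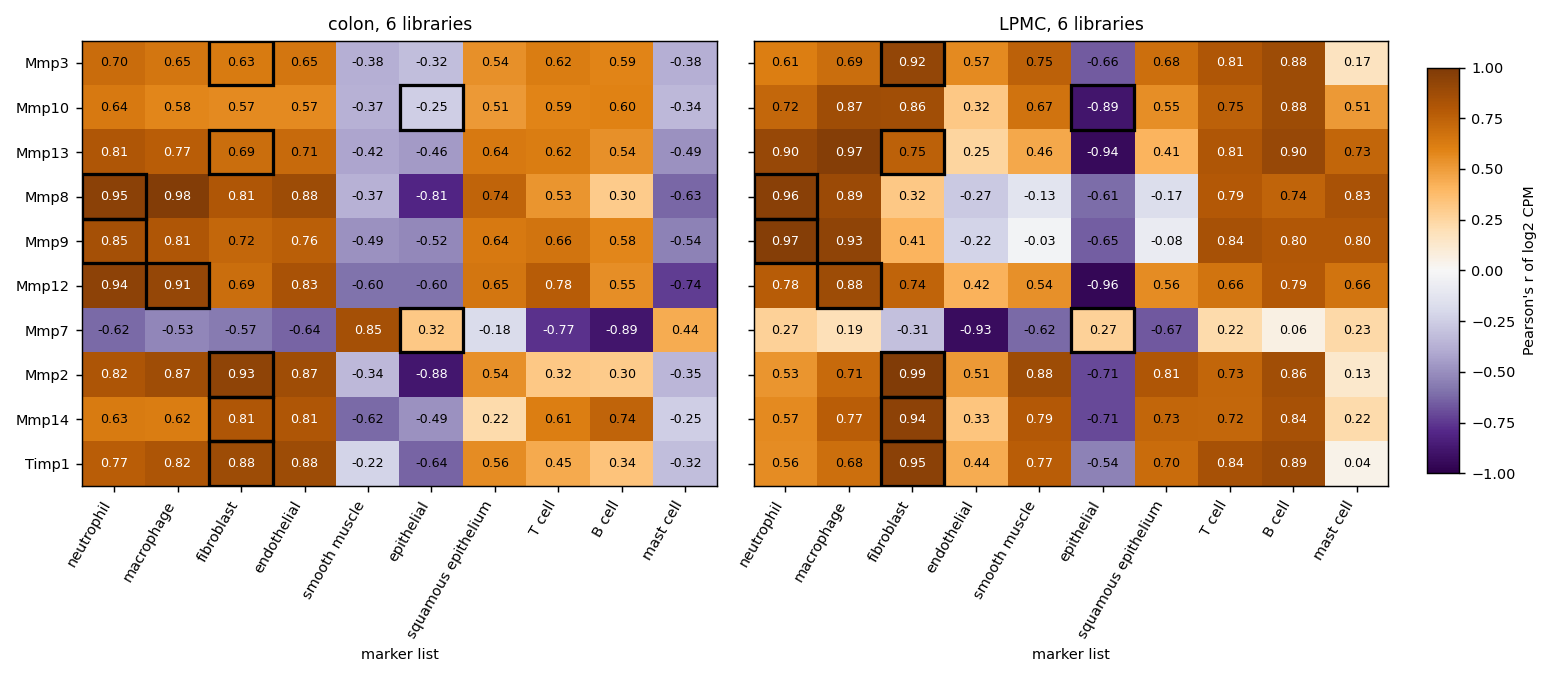
Pearson's r of the log2 CPM of each gene with the mean log2 CPM of 10 marker lists, over the 6 colon libraries (left) and the 6 LPMC libraries (right). Boxes mark the 1 list tested per gene; Mmp2 reaches 0.93 and 0.99 with fibroblast markers, and Mmp8 and Mmp9 reach 0.96 and 0.97 with neutrophil markers in LPMC.

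The genes most like each of the 10 were taken as those with the highest r of log2 CPM deviations from the group means, over 12 libraries and among 12037 genes. Mmp3 and Mmp10 were nearest to each other (r = 0.979), and Mmp13 was next for Mmp3 (0.975). Mmp13 was nearest to Il1rl1 (0.980), which encodes the interleukin 33 receptor, and Il6 was also among its nearest 3 (0.968). Mmp8 was nearest to Aoah, Ifitm6 and Ctsc (0.987 to 0.992), the last a protease that activates neutrophil serine proteases. Mmp9 was nearest to Inhba, Ptgs2 and Trpm2 (0.976 to 0.978), Mmp2 to Lamb1, Tril and Fgf7 (0.987 to 0.989) and Mmp14 to Cdh11, Masp1 and Sept4 (0.978 to 0.986). Timp1 was nearest to Pla1a, Nab2 and Procr (0.976 to 0.981) and Mmp12 to Abcb1b, Mdfic and Dab2 (0.975 to 0.983). Mmp7 was nearest to Zbtb49, Med7 and Pak1 (0.855 to 0.954). These values are descriptions of 12 shared libraries and carry no test.

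Other genes of the pathway were read as lists, beside the 25.4% of all genes that were called higher in LPMC and the 24.9% called lower. Of the other metalloproteinases 10 of 14 could be tested for LPMC against colon, and 4 were higher and 0 lower in LPMC, among them Mmp25, a membrane-anchored enzyme of leukocytes, with a log2 fold change of 3.41 (SE 0.53, edgeR adjusted p = 0.000408), Mmp16 (2.84) and Mmp11 (1.26). Mmp16 was scarce, at a mean of 0.735 CPM in LPMC and 0.108 CPM in colon. The tissues overlapped for Mmp16 and Mmp11. Of the other inhibitors 3 of 5 were higher, namely Timp3 (2.38), the membrane-anchored inhibitor Reck (2.03) and Timp2 (1.46), whereas Timp1 did not pass. Of activators and partners 3 were higher and 1 lower of 9, including the urokinase receptor Plaur at 1.39 (SE 0.20, edgeR adjusted p = 0.000261), Klk1 at 1.43 and the convertase Furin, which activates Mmp14, at 0.45.

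Of the inducers 9 of 9 were higher in LPMC, with a median log2 fold change of 3.28. All tested T cell markers (6 of 6, median 3.08) and mast cell markers (5 of 5, median 2.87) were higher as well. The inducers of lowest p were Tnf at 3.16 (SE 0.22, edgeR adjusted p = 2.47e-06), Il1b at 4.04 and Il1a at 3.51. Of matrix substrates 7 of 10 were higher, with Col4a1 at 2.21, Col1a1 at 2.68 and Col4a2 at 1.96; Col1a1 and Col3a1 are also in the fibroblast list. Of the related ADAM and ADAMTS proteases 7 of 9 were higher, with Adamts1 at 3.19, Adamts4 at 3.20 and Adam8 at 1.69.

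Between KO and WT none of these lists held a called gene in either tissue (edgeR, 0 in each). In colon the inducers had a median log2 fold change of -1.03, with 9 of 9 negative and 1 at an unadjusted p under 0.05, Tnf at -1.02 (SE 0.35, edgeR adjusted p = 0.632). Matrix substrates had a median of 0.90, with 10 of 10 positive and 3 at an unadjusted p under 0.05, namely Tnc (1.11), Fn1 (1.20) and Col3a1 (1.34), each with an edgeR adjusted p of 0.632. In the same comparison T cell and B cell markers had medians of -1.43 (6 of 6 negative) and -5.26 (5 of 5), and fibroblast and smooth muscle markers of 0.66 (9 of 10 positive) and 0.96 (6 of 6), with 0 called in each. Their part in the values of the inducers and substrates was not tested. Plaur was at -1.29 in colon (SE 0.32, edgeR adjusted p = 0.632) and at 0.38 in LPMC. In LPMC the inducers had a median of 0.29 and the substrates of -0.07, and the lowest p among ADAM relatives was that of Adam8, a leukocyte protease, at 0.87 (SE 0.35, edgeR adjusted p = 0.998).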

How the data were processed

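The authors deposited 1 table of raw counts, in whole numbers, for each Ensembl gene. Per the labels' protocols, a stranded Illumina mRNA kit was used; per the submitters' processing notes, STAR and GRCm38 (mm10). Its counting tool, annotation, strand setting and filters were not given in the sources used here. Columns were assigned by library name. Symbols came from GENCODE M21 for 54042 of 54109 identifiers; the other 67 held at most 0.00333% of a library's counts.

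Of counts from 1 to 20, 66.6 to 76.6% were even, which makes the counting error wider than raw counts would give. Chi-square per gene between replicates was 75.5 to 602, beyond sampling noise, and all 12 libraries were kept. Mmp7 and Mmp12 overlap exons of genes on the other strand that had at most 1 count.

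Tests used edgeR 4.0.16 in R 4.3.3 (TMM, filterByExpr with a minimum count of 10, robust quasi-likelihood F-test), with Benjamini-Hochberg adjustment over all genes and calls under 0.05, and were tested on simulated data. KO was compared with WT on the 6 libraries of a tissue; the interaction and LPMC against colon used all 12. The SE is the size of the log2 fold change over the square root of F. Gene levels are given as TMM-scaled CPM; log2 CPM used a prior count of 2. Correlations used scipy 1.17.1. Alternatives were DESeq2 1.42.0, its size factors, no filter, a replicate block, all 12 libraries, CPM of the library total and each library left out; exon-union length and the neutrophil sum without Ly6g were added after seeing the data.

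The genes and lists were chosen with earlier results of these data known. The text names all 10 genes, up to 3 of each list per comparison by lowest p, and the 3 genes most like each of the 10 at a mean log2 CPM no lower than 1.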

Additional observations from a re-analysis of the deposited data

How the results depend on the processing

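None of the 10 genes was called between KO and WT, or in the interaction, under any alternative run. Over all genes, DESeq2 called 33 in colon, 34 in LPMC and 3 in the interaction, against 1, 2 and 0. The fit on all 12 libraries called 2 in colon and no filter called 4 in LPMC. Leaving out each library gave 0 to 1 called genes in colon, 1 to 2 in LPMC, 0 in the interaction and 9451 to 10790 for LPMC against colon. CPM of the library total left 3 of 20 correlations past the threshold, against 5. Those of Mmp14 and Mmp10 in LPMC were lost (exact permutation adjusted p = 0.0556 for each). The replicate block called 0 genes in colon and 0 in LPMC.

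The labels do not say whether replicate numbers pair libraries, and not every same-numbered pair correlated above 0.1 (deviations, -0.231 to 0.303). Between colon and LPMC, r was 0.064 to 0.303 and 5 of 6 colon libraries correlated best with their own number, a hint from the data; whether these share mice is not stated. The replicate block joined WT and KO libraries of the same number within a tissue. It did not join colon to LPMC libraries, and such a pairing was not modelled. Under the block Mmp2 and Mmp8 lost their call for LPMC against colon (edgeR adjusted p = 0.0661 and 0.0612). Signs turned under it for Mmp8 in colon (-0.20), Mmp3 in LPMC (-0.21) and Mmp3 for LPMC against colon (0.08). Mmp14 in colon, near 0, was 0.01 with DESeq2, its size factors or all 12 libraries and 0.03 with no filter.

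Leaving out single libraries turned signs for these log2 fold changes, none called. In colon the range was -3.04 to 0.70 for Mmp3, -0.20 to 0.56 for Mmp7, -0.57 to 0.72 for Mmp8, -1.41 to 0.36 for Mmp9, -3.31 to 1.02 for Mmp10, -2.67 to 0.67 for Mmp13, -0.09 to 0.14 for Mmp14 and -0.23 to 0.48 for Timp1. In LPMC it was -0.55 to 0.66 for Mmp2, -0.46 to 0.56 for Mmp3, -0.08 to 0.35 for Mmp14 and -0.54 to 0.39 for Timp1. In the interaction it was -0.66 to 3.10 for Mmp3, -0.09 to 0.34 for Mmp14 and -0.70 to 0.25 for Timp1. For LPMC against colon it was -1.01 to 0.28 for Mmp3 and -0.0059 to 0.47 for Mmp12. Without the 2 farthest libraries r turned to -0.29 for Mmp7, -0.17 for Mmp9 and -0.68 for Mmp12 in colon and to -0.12 for Mmp3 and -0.25 for Mmp7 in LPMC. The cause was not tested. The 3 libraries per group limit the precision.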
